A study of Mus musculus with 18 samples.

Results

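The genes described here encode 10 proteins that carry new polypeptides into the endoplasmic reticulum (ER) and fold them there: Sec61b, Ssr1, Serp1, Rpn2, Hspa5, Hsp90b1, Calr, P4hb, Pdia3 and Pdia6. They are 10 of the 46983 genes in each table and were taken by symbol. The list was selected on measured values of these libraries, and which ones was not recorded, so the D18 comparisons in all 3 sorts are counted among them. The changes of the members with D18 are therefore given as a description and no test of them is offered. RNA came from 3 sorts (dendritic cells, CD8+ T cells, and T helper cells, called CD4+ here) made from MC38 tumours, a mouse colon carcinoma line grown under the skin of C57BL/6 females that were 6 weeks old when the cells were injected. One group of animals was given an antibody against PD-1, an inhibitory receptor of T cells, together with D18, an agent known here by its code name alone, at 25 µg per mouse 1 time a week (D18 libraries below). The other group received anti-PD-1 alone, at 200 µg per mouse 2 times a week (anti-PD-1 libraries), and the antibody dose was shared by both groups over 2 weeks of treatment. Each sort has 3 D18 libraries and 3 anti-PD-1 libraries. The labels describe a pooling of mice ahead of random division and do not tie libraries to separate mice, so any error given here is the spread between libraries.

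As background, proteins that a cell secretes or places on its surface enter the ER through the Sec61 channel while they are being made, and there receive sugar chains, disulfide bonds and help with folding. Hspa5 (BiP) is the Hsp70 chaperone of this compartment and the usual readout of the unfolded protein response, in which the sensors Ire1, Perk and Atf6 raise the supply of chaperones when folding falls behind. In T cells and antigen-presenting cells this machinery handles cytokines, receptors and MHC molecules, and calreticulin and Pdia3 also sit in the complex that loads peptides onto MHC class I.

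The promoters are shown because several chaperone genes of this pathway are known targets of Atf6 and Xbp1 through the ER stress response element, CCAAT and CCACG held 9 bases apart. RefSeq promoters (GRCm38.p6, from 250 bases before the start to 50 after it) were found for all 10 members, and both strands were searched. The element was present in 4 of the 10 (Hspa5, Hsp90b1, Calr and Pdia6), and in 39 of all 32851 promoters (0.119%). In the stretches below, written 5′ to 3′ on the gene's strand, capitals mark the 2 outer blocks of the element, or their complements where it lies on the other strand.
Hspa5, chr2:34772019-34772049, plus strand: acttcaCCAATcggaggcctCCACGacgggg
Pdia6, chr12:17266485-17266515, plus strand: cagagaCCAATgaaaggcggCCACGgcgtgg
Calr, chr8:84847069-84847099, minus strand: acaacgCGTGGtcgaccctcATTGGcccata
Hsp90b1, chr10:86705527-86705662, minus strand: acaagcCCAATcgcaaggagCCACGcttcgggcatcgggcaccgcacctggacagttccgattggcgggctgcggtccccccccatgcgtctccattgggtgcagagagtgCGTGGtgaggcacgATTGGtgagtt
The match of Hspa5 lies at −65 to −47 from the RefSeq start, and Hsp90b1 holds a pair of matches in opposite orientations, at −212 to −194 and at −107 to −89. No member's window held the second ER stress response element (0.0365% of all promoters), or the unfolded protein response element, TGACGTGG (0.676%). A match describes letters and is not a binding site, and an absent one says only that the letters are not in this window.

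The libraries were shallow, with 11170 to 266392 reads assigned to genes, and 2.39% to 71.9% of those reads came from mitochondrial genes. Markers went against the sort in several libraries. Among CD4+ T cell libraries, D18 replicate 3 held 83 reads of Cd8a against 2 of Cd4, while Cd3e, part of the T cell receptor, had 0 reads in anti-PD-1 replicate 1 and 1 read in anti-PD-1 replicate 2. The list of 13 dendritic cell genes summed, in the dendritic cell sort, to 13482, 4498 and 8415 CPM of non-mitochondrial reads with D18 and 12643, 43900 and 9228 CPM with anti-PD-1, with overlap. Its member Flt3, a receptor of dendritic cells and their precursors, had 13, 1 and 3 reads with D18 and 0 in each anti-PD-1 library. In the same list H2-Aa had 391, 11 and 289 reads with D18 and 151, 689 and 269 with anti-PD-1, which overlap. Itgax had 52, 3 and 38 reads with D18 against 20, 17 and 22, and Zbtb46 2, 0 and 2 against 0, 1 and 0. Both libraries numbered 3 of the dendritic cell sort held T cell reads (883 with D18 and 484 with anti-PD-1 over a list of 13 T cell genes, against at most 34 in the other 4). Those numbered 3 of the CD8+ T cell sort had the lowest T cell signal of that sort, 4707 CPM of non-mitochondrial reads with D18 and 3481 CPM with anti-PD-1 over that list, against at least 9048 CPM in the other 4. Finally, 3 mitochondrial genes (mt-Atp6, mt-Co2 and mt-Co3) together had 5 to 334 reads in 12 libraries and none in the other 6, which were the anti-PD-1 libraries numbered 1 and 2 of every sort, so that a single anti-PD-1 library per sort, replicate 3, resembles the D18 libraries in this respect. In bulk RNA, fewer cells of a type and less RNA per cell cannot be told apart.

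All 10 members were transcribed in all 3 sorts, and the order of their levels was much alike in each. Levels are compared as CPM of the reads outside mitochondrial genes per kb of annotated exon (mean ± SD over the 6 libraries of a sort), and since the authors normalised each sort separately they are described across sorts and not tested. Hspa5 stood at 234 ± 116 CPM per kb in the CD8+ T cell sort, 264 ± 200 in the CD4+ T cell sort and 188 ± 127 in the dendritic cell sort. P4hb, the beta subunit of prolyl hydroxylase and itself a disulfide isomerase, had 178 ± 66.2, 184 ± 73.2 and 217 ± 148 CPM per kb. Calr had 182 ± 72.2, 131 ± 42.1 and 158 ± 73.5 CPM per kb, Sec61b 138 ± 72.9, 158 ± 88.6 and 171 ± 119, and Pdia3 145 ± 92.4, 135 ± 49.5 and 121 ± 95.1. The 1 SD intervals of these first 5 overlap one another in every sort. Hsp90b1 (79.8 to 108 CPM per kb over the 3 sorts), Pdia6 (80.7 to 92.3), Rpn2 (52.8 to 69.7) and Serp1 (49.6 to 59.0) had lower means. The 1 SD intervals of Hsp90b1 and Pdia6 still overlap those of Sec61b and Pdia3 in every sort. Ssr1, whose exons span 10.4 kb, was last with 17.8 to 20.4 CPM per kb. With the length of the principal transcript in place of all exons, Sec61b was first in every sort (310 to 384 CPM per kb) and Ssr1 still last. The order between them changed too. Pdia6 then exceeded Pdia3 in the CD4+ T cell sort (159 against 153 CPM per kb). In the dendritic cell sort Hsp90b1 (155) and Pdia6 (149) both exceeded Pdia3 (137). For each member the 1 SD intervals of the 3 sorts overlapped.

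**Figure D1:**
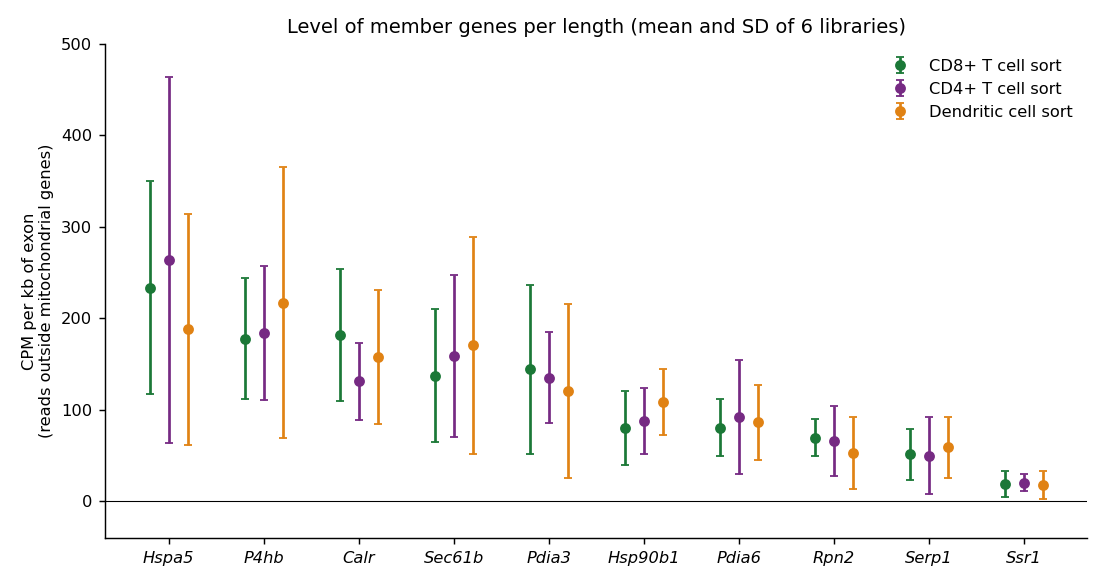
Mean level of each gene in CPM of non-mitochondrial reads per kb of exon, with bars of 1 SD over the 6 libraries of a sort (colours), both treatments together. Hspa5 is highest in the CD8+ and CD4+ T cell sorts, P4hb is highest in the dendritic cell sort, Ssr1 is lowest in all 3, and the bars of the 3 sorts overlap for every gene.

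For the D18 comparison, values are recovered reads divided by the authors' size factor (normalised reads), log2 changes are D18 minus anti-PD-1 on log2(normalised reads + 1), which understates changes of low genes, and every error is the standard error from limma with 3 libraries per group. All 10 members passed the filter of a mean of at least 10 normalised reads in every sort. No gene passed an adjusted p of 0.05 in the 3 limma fits, so the background of called genes is 0% of 1569 in CD8+ T cells, 0% of 966 in CD4+ T cells and 0% of 886 in dendritic cells, and 0 members were called. An unadjusted p under 0.05 was found for 130, 100 and 61 genes, and limma-voom also called 0 in each sort. Some member values rest on few reads: of the 180 values (10 genes in 18 libraries) 31 come from under 10 reads and 6 are 0.

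The dendritic cell sort held the lowest values with D18, and its D18 replicate 2 decides much of their size. That library has 11170 reads, of which 7 belong to the 10 members, and 0 reads in it allow up to 14.4 normalised reads at 95% confidence, counting error only. With it, 69.1% of all tested genes and 10 of 10 members had a log2 change below 0, with medians of −0.65 over all genes and −1.86 over the members. Without it, 47.5% of all genes and 9 of 10 members were below 0, and the medians were 0.06 and −0.76. Where limma-voom down-weighted libraries by quality the medians were −0.18 and −0.94, and with a pseudocount of 10 they were −0.31 and −0.98. This contrast is counted among the values that chose the members, so neither count is a result about them.

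Among the translocation genes, Ssr1, the alpha subunit of the translocon-associated protein complex beside the Sec61 channel (ENSMUSG00000021427.9, mm10 chromosome 13, 37966605 to 37994217), had 1.09, 0 and 9.56 normalised reads in the D18 libraries of the dendritic cell sort and 23.3, 18.99 and 17.99 in the anti-PD-1 libraries. Every D18 library lay below every anti-PD-1 library. The log2 change was −2.90 ± 1.19, and −2.16 ± 0.76 without D18 replicate 2; with it, 0.790% of the 886 genes had a lower change. The 2 reads of D18 replicate 1 came from a library of 190641 reads. Serp1, a small membrane protein that associates with the Sec61 complex and protects new membrane proteins during ER stress (ENSMUSG00000027808.8, chromosome 3, 58519817 to 58525892), had 23.3, 0 and 11.5 with D18 against 22.2, 26.4 and 22.7 with anti-PD-1. D18 replicate 1 was level with the anti-PD-1 libraries, and the change of −1.88 ± 1.11 became −0.50 ± 0.44 without D18 replicate 2. Sec61b, the beta subunit of the channel (ENSMUSG00000053317.11, chromosome 4, 47474658 to 47483242), went another way, with 26.6, 0 and 23.4 against 14.8, 5.28 and 15.1. Both deeper D18 libraries exceeded all anti-PD-1 libraries, the mean of normalised reads was higher with D18 (16.7 ± 14.5 against 11.8 ± 5.61, SD, n = 3 each), and the sign of the log2 change was decided by the 0, being −0.42 ± 1.32 with D18 replicate 2 and 1.15 ± 0.53 without it.

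Rpn2 is a subunit of the oligosaccharyltransferase, the enzyme that attaches N-linked sugar chains to proteins as they enter (ENSMUSG00000027642.15, chromosome 2, 157279017 to 157326319). In the dendritic cell sort it had 7.60, 0 and 10.0 normalised reads with D18 and 19.1, 28.5 and 25.1 with anti-PD-1, without overlap. Its log2 change was −2.45 ± 1.01, and −1.35 ± 0.40 without D18 replicate 2.

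The chaperones were less uniform in that sort. Hspa5 (ENSMUSG00000026864.13, chromosome 2, 34771970 to 34777547) had 25.0, 4.81 and 52.1 normalised reads with D18 and 79.4, 46.4 and 95.1 with anti-PD-1, and D18 replicate 3 lay above anti-PD-1 replicate 2. The change was −1.84 ± 0.90, and −0.95 ± 0.51 without D18 replicate 2. Hsp90b1 (Grp94), the Hsp90 of the ER, which folds integrins and Toll-like receptors (ENSMUSG00000020048.13, chromosome 10, 86690209 to 86705509), had 22.8, 14.4 and 22.5 against 41.3, 36.9 and 25.6. The groups did not overlap although the change was small, at −0.77 ± 0.60, near the median of −0.65 over all genes. Calr, the calcium-binding lectin chaperone of glycoproteins (ENSMUSG00000003814.8, chromosome 8, 84841850 to 84846934), had 23.3, 4.81 and 36.8 against 34.9, 46.4 and 28.4, which overlap (−1.08 ± 0.80, and −0.28 ± 0.43 without D18 replicate 2).

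Of the disulfide isomerases, which form and rearrange the bonds between cysteines, P4hb (ENSMUSG00000025130.11, chromosome 11, 120560298 to 120573253) had 15.7, 4.81 and 27.7 normalised reads with D18 and 66.7, 67.5 and 54.4 with anti-PD-1. The anti-PD-1 libraries were close together, and the highest D18 library lay well below them. The change was −2.17 ± 0.74, and −1.54 ± 0.42 without D18 replicate 2. Pdia3 (ERp57), the isomerase that works on glycoproteins held by calreticulin and calnexin (ENSMUSG00000027248.13, chromosome 2, 121413775 to 121438687), had 9.22, 0 and 18.6 against 44.5, 27.4 and 45.0, again without overlap (−2.74 ± 1.06, and −1.46 ± 0.48 without that library). Pdia6, an isomerase that binds Hspa5 (ENSMUSG00000020571.12, chromosome 12, 17266545 to 17284770), had 28.8, 4.81 and 17.7 against 32.8, 14.8 and 25.1. Its groups overlapped, and without D18 replicate 2 the change was −0.03 ± 0.49.

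In normalised reads, 5 of 10 members had every D18 value of the dendritic cell sort below every anti-PD-1 value, where 19.9% of all tested genes did. They were Ssr1, Rpn2, Hsp90b1, P4hb and Pdia3. Without D18 replicate 2 the same 5 were counted, against 21.4% of all genes. That library was the lowest of the 6 for all 10 members, so leaving it out could not end a separation. The second count therefore adds nothing to the first. No member had every D18 value above every anti-PD-1 value with all 6 libraries, where 4.18% of genes did. The scale decides part of this. As CPM of all reads, each of the 5 overlapped through anti-PD-1 replicate 2. P4hb, for example, had 343 CPM in D18 replicate 3 against 288 CPM in that library. The share of all genes that separate on that scale was not counted. Of the 4 members with an ER stress response element in the promoter window, Hsp90b1 is among these 5. The other 3, Hspa5, Calr and Pdia6, overlapped between treatments. When both libraries numbered 3 were left out, which held T cell reads, 10 of 10 members were below 0 with a median of −2.34. Over all genes 72.1% were below 0, with a median of −0.94. The D18 side of that setting is replicates 1 and 2 alone, and replicate 2 held 7 reads of the members. With a term for the 6 libraries that lack reads of those 3 mitochondrial genes, an estimate that rests on anti-PD-1 replicate 3 alone, the median over the members was −1.90 and over all genes −0.72.

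**Figure D2:**
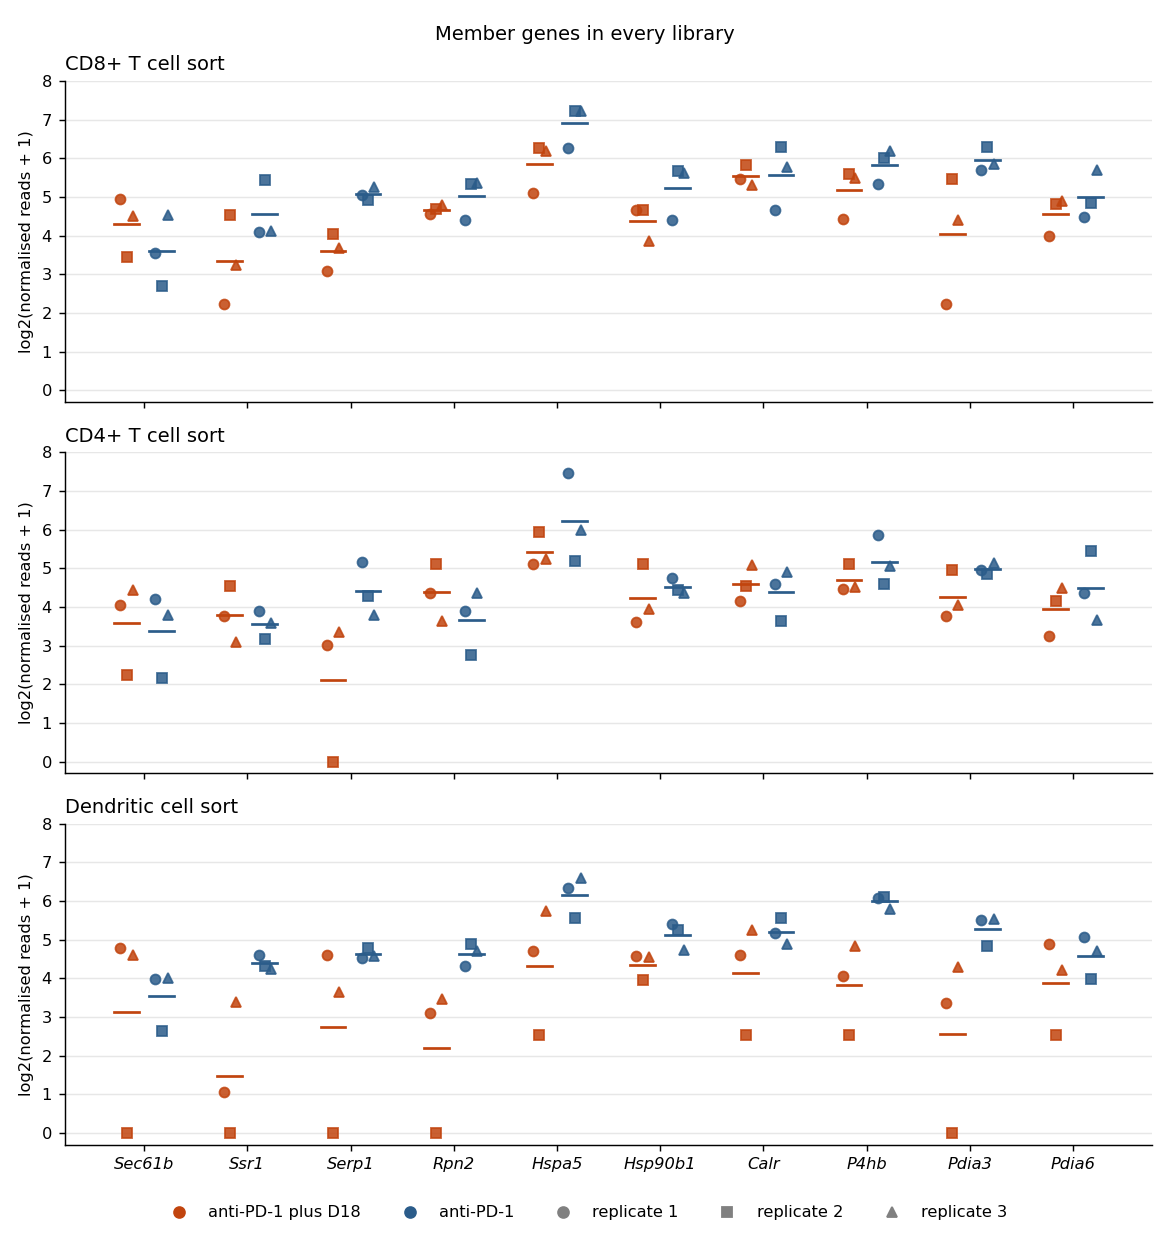
Normalised reads of each gene in every library, as log2(normalised reads + 1), by sort (panels), treatment (colour) and replicate (marker), with the mean of each group as a line. In the dendritic cell sort D18 replicate 2 (square) is the lowest of the 6 libraries for all 10 genes, at 0 for 5 of them.

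In the CD8+ T cell sort, the log2 change was below 0 for 9 of 10 members, with a median of −0.76 beside −0.03 over all 1569 genes, 51.7% of which were below 0. Pdia3 had 3.74, 43.1 and 20.2 normalised reads with D18 and 51.2, 77.2 and 56.7 with anti-PD-1. All D18 values lay below all anti-PD-1 values, but they spread widely, and the change was −1.91 ± 0.75, or −1.01 without D18 replicate 1, which held 2 reads. Serp1 had 7.48, 15.4 and 11.8 with D18 and 32.4, 29.4 and 37.5 with anti-PD-1. Here the groups were apart (11.6 ± 3.97 against 33.1 ± 4.08, SD, n = 3 each), with a change of −1.49 ± 0.40. It ranged from −1.70 to −1.23 when single libraries were left out. The D18 values rest on 4, 45 and 7 reads, so the counting error of replicates 1 and 3 is large. In normalised reads these 2 genes were the members with every D18 value below every anti-PD-1 value, where 7.65% of all genes had that. As CPM of all reads Pdia3 overlapped, with 473 CPM in D18 replicate 2 against 411 CPM in anti-PD-1 replicate 3. None had every D18 value above every anti-PD-1 value, where 6.88% of genes did.

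Hspa5 had 33.6, 75.6 and 72.4 normalised reads with D18 and 75.5, 150 and 149 with anti-PD-1 in the CD8+ T cell sort. The highest D18 library and the lowest anti-PD-1 library were level, and the change was −1.05 ± 0.51. Ssr1 had 3.74, 22.2 and 8.42 against 16.2, 42.2 and 16.3 (−1.21 ± 0.66), with 2 and 5 reads in D18 replicates 1 and 3. Hsp90b1 had 24.3, 24.3 and 13.5 against 20.2, 50.5 and 48.0 (−0.84 ± 0.48), and P4hb 20.6, 47.6 and 43.8 against 39.1, 63.3 and 72.1 (−0.67 ± 0.48). Both overlapped through a low anti-PD-1 replicate 1. D18 replicate 1 carries much of the changes of Hspa5, Ssr1 and P4hb, which stood at −0.68, −0.66 and −0.30 without it. Ssr1 was at −0.77 without anti-PD-1 replicate 2. For Hsp90b1 the single library that brought the change nearest 0 was D18 replicate 3, without which it was −0.58. Rpn2, with 22.4, 24.6 and 26.9 against 20.2, 39.4 and 40.4, and Pdia6, with 14.95, 27.4 and 28.6 against 21.6, 27.8 and 50.9, showed changes within their errors (−0.36 ± 0.41 and −0.44 ± 0.46), which single libraries moved between −0.67 and −0.19 for Rpn2 and between −0.70 and −0.10 for Pdia6. Calr did not separate at all, at 43.0, 55.8 and 38.7 with D18 and 24.3, 77.2 and 53.8 with anti-PD-1 (−0.04 ± 0.50). Sec61b was the member on the other side, with 29.9, 9.92 and 21.9 against 10.8, 5.55 and 22.1, values that overlap (0.71 ± 0.60, and 0.26 without anti-PD-1 replicate 2).

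With the replicate number as a block, which the pairing of libraries in this sort allows, 20 of 1569 genes passed (1.27%) and none of them is a member. The block leaves the size of every change as it was. Without both libraries numbered 3, 8 of 10 members were below 0 with a median of −0.52, and Calr became 0.17. Over all genes 48.9% were below 0 in that setting, with a median of 0.02. With the library-set term all 10 were below 0 (median −1.07, beside −0.10 over all genes), Sec61b at −0.22 included. The 12 macrophage and monocyte markers were low in D18 replicates 1 and 2 of this sort and overlapped through D18 replicate 3. They summed to 1231, 2556 and 28860 CPM of non-mitochondrial reads in the D18 libraries and 28934, 22616 and 45078 CPM in the anti-PD-1 libraries. Lyz2 among them had 20.6, 82.5 and 955 normalised reads with D18 and 80.9, 533 and 602 with anti-PD-1, so D18 replicate 3 was the highest of the 6. Their part in the values of the members was not tested.

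In the CD4+ T cell sort the members divided, 6 lower and 4 higher with D18, with a median of −0.38 beside 0.03 over all 966 genes, 48.4% of which were below 0. Serp1 was the furthest from 0 and the member without overlap, where 9.21% of all genes had every D18 value below every anti-PD-1 value. No member separated upward, where 5.28% of genes did. Serp1 had 7.06, 0 and 9.23 normalised reads with D18 and 34.95, 18.5 and 13.0 with anti-PD-1, a change of −2.30 ± 1.03. As CPM of all reads Serp1 overlapped, with 117 CPM in D18 replicate 3 against 111 CPM in anti-PD-1 replicate 2. The 0 comes from a library of 31156 reads, where it allows up to 5.63 normalised reads, and without that library, D18 replicate 2, the change was −1.24. Hspa5 had 33.9, 60.0 and 36.9 against 177, 35.8 and 63.0. Its change of −0.79 ± 0.64 rests on anti-PD-1 replicate 1, without which it was −0.17.

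Pdia3, with 12.7, 30.0 and 15.6 normalised reads with D18 and 30.1, 27.7 and 34.4 with anti-PD-1 in the CD4+ T cell sort, overlapped through D18 replicate 2 (−0.72 ± 0.53). Pdia6 (−0.53 ± 0.62), P4hb (−0.47 ± 0.54) and Hsp90b1 (−0.29 ± 0.57) were below 0, with errors above the size of the changes and overlapping groups. Pdia6 was at −0.05 without anti-PD-1 replicate 2, P4hb at −0.13 without anti-PD-1 replicate 1 and Hsp90b1 at 0.02 without D18 replicate 1. Rpn2 had a log2 change above 0 in the CD4+ T cell sort, with 19.8, 33.8 and 11.5 normalised reads with D18 and 13.98, 5.78 and 19.5 with anti-PD-1 (0.71 ± 0.61). The groups overlap, and the change was 0.25 without anti-PD-1 replicate 2, which held 5 reads, and 0.02 with the library-set term. Ssr1 (0.25 ± 0.57), Calr (0.22 ± 0.57) and Sec61b (0.19 ± 0.81) lay near 0, and the sign of each turned when a single library was left out. The T cell list had 333, 167 and 644 reads with D18 and 10, 17 and 613 with anti-PD-1 in this sort, and its 12 macrophage and monocyte markers summed to 8199, 24879 and 28791 CPM of non-mitochondrial reads with D18 and 67099, 73532 and 20706 CPM with anti-PD-1. Their part in these values was not tested. Without D18 replicate 3, which held Cd8a reads, 8 of 10 members were below 0 with a median of −0.31. Over all genes 51.2% were below 0 in that setting, with a median of −0.03. The library-set term, which again rests on anti-PD-1 replicate 3, gave 7 of 10 below 0 with a median of −0.27 beside −0.19 over all genes; cell content and library set cannot be told apart here.

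**Figure D3:**
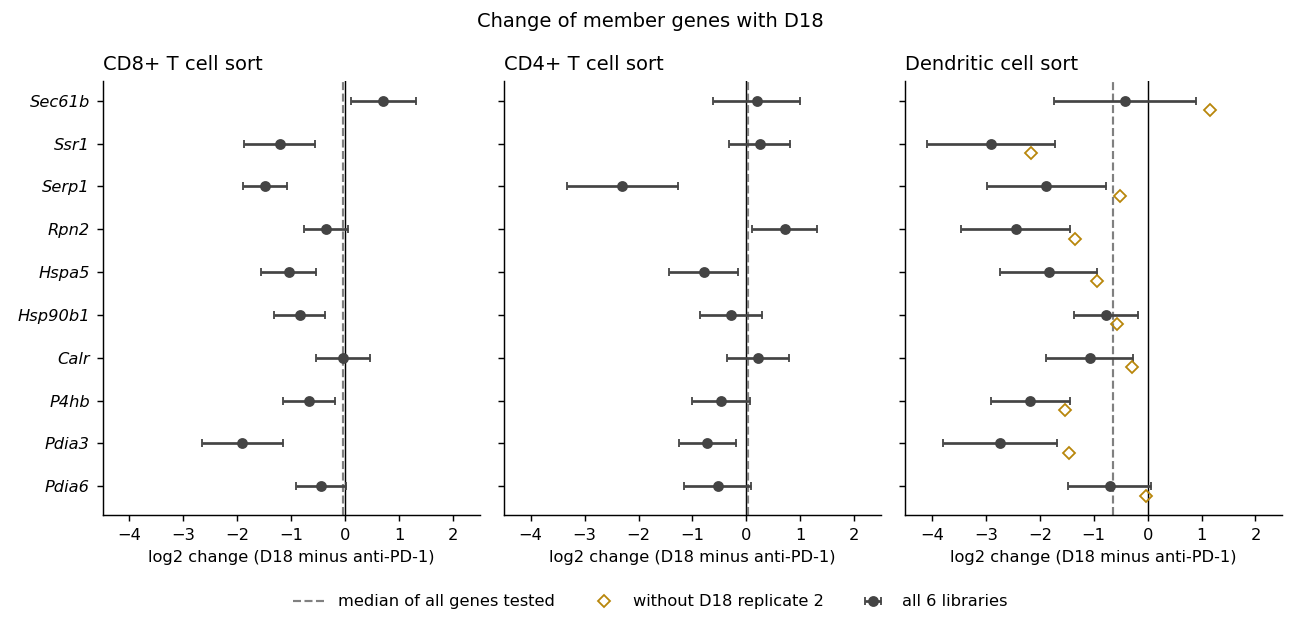
Log2 change (D18 minus anti-PD-1) of each gene with its standard error, by sort, beside the median change of all genes tested (dashed line); diamonds give the dendritic cell sort without D18 replicate 2. With all 6 libraries Serp1, Hspa5, Hsp90b1, P4hb, Pdia3 and Pdia6 lie below the dashed line in all 3 panels. In the dendritic cell panel the dashed line itself stands at −0.65.

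With all libraries, Serp1 was lower in all 3 sorts (−1.49, −2.30 and −1.88), as were Pdia3 (−1.91, −0.72 and −2.74), Hspa5 (−1.05, −0.79 and −1.84), P4hb, Hsp90b1 and Pdia6, in the order CD8+, CD4+ and dendritic. Of these 6, Pdia6 was at −0.03 and Serp1 at −0.50 in dendritic cells without D18 replicate 2. In CD4+ T cells, leaving out a single library brought Hspa5 to −0.17, P4hb to −0.13, Pdia6 to −0.05 and Hsp90b1 to 0.02. Of all genes tested 51.7%, 48.4% and 69.1% were below 0 in these sorts, and the share below 0 in all 3 was not counted. Rpn2 and Ssr1 were above 0 in the CD4+ T cell sort and below 0 in the other two, Calr lay near 0 in both T cell sorts, and Sec61b was above 0 in all 3 sorts once D18 replicate 2 of the dendritic cell sort was left out. Whether the changes differ between sorts was tested as the difference of 2 changes in 1 limma fit over all 18 libraries. No gene passed for dendritic minus CD8+ (0 of 816, 7 with an unadjusted p under 0.05), dendritic minus CD4+ (0 of 744, 21) or CD8+ minus CD4+ (0 of 916, 6). The widest differences among the members were those of Rpn2 (−3.16 ± 1.08) and Ssr1 (−3.15 ± 1.11) for dendritic minus CD4+, given as a description, with D18 replicate 2 of the dendritic cell sort included.

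The summed level of the 10 genes shows how the libraries lie. In the dendritic cell sort the members together took 2625, 732 and 3523 CPM of non-mitochondrial reads with D18 and 6167, 4826 and 5633 CPM with anti-PD-1. In the CD8+ T cell sort the sums were 2130, 4013 and 2910 CPM with D18 and 3388, 6246 and 5426 CPM with anti-PD-1, and in the CD4+ T cell sort 2574, 4526 and 3112 CPM against 6504, 3665 and 4094 CPM. On this scale the groups do not overlap in the dendritic cell sort and overlap in both T cell sorts. The scale decides part of this. As CPM of all reads, mitochondrial ones included, the dendritic cell sums were 1773, 627 and 2841 CPM with D18 and 6019, 1358 and 4379 CPM with anti-PD-1, which overlap through anti-PD-1 replicate 2. In the CD4+ T cell sort the direction turned, with means of 2907 ± 1317 CPM of all reads with D18 and 2761 ± 1408 CPM with anti-PD-1 (SD, n = 3 each), beside 3404 ± 1009 CPM of non-mitochondrial reads with D18 and 4754 ± 1531 CPM with anti-PD-1. In the CD8+ T cell sort the D18 mean was the lower on both scales, at 2642 ± 1005 CPM of all reads with D18 and 4086 ± 1198 CPM with anti-PD-1. Macrophage and monocyte markers of the dendritic cell sort summed to 38815, 13598 and 29609 CPM with D18 and 38929, 60840 and 40566 CPM with anti-PD-1. The replicates numbered 1 were thus level. As CPM of all reads the marker sums were 26217, 11638 and 23881 with D18 and 37997, 17118 and 31539 with anti-PD-1, which overlap. The part of these markers was not tested. Markers of B cells and of plasma cells, a cell type rich in ER, summed to 1841, 105 and 637 CPM with D18 and 155, 79.9 and 128 CPM with anti-PD-1 in the dendritic cell sort, high in D18 replicates 1 and 3. Jchain, a plasma cell gene, had 0 reads in all 18 libraries and Mzb1 at most 7.

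**Figure D4:**
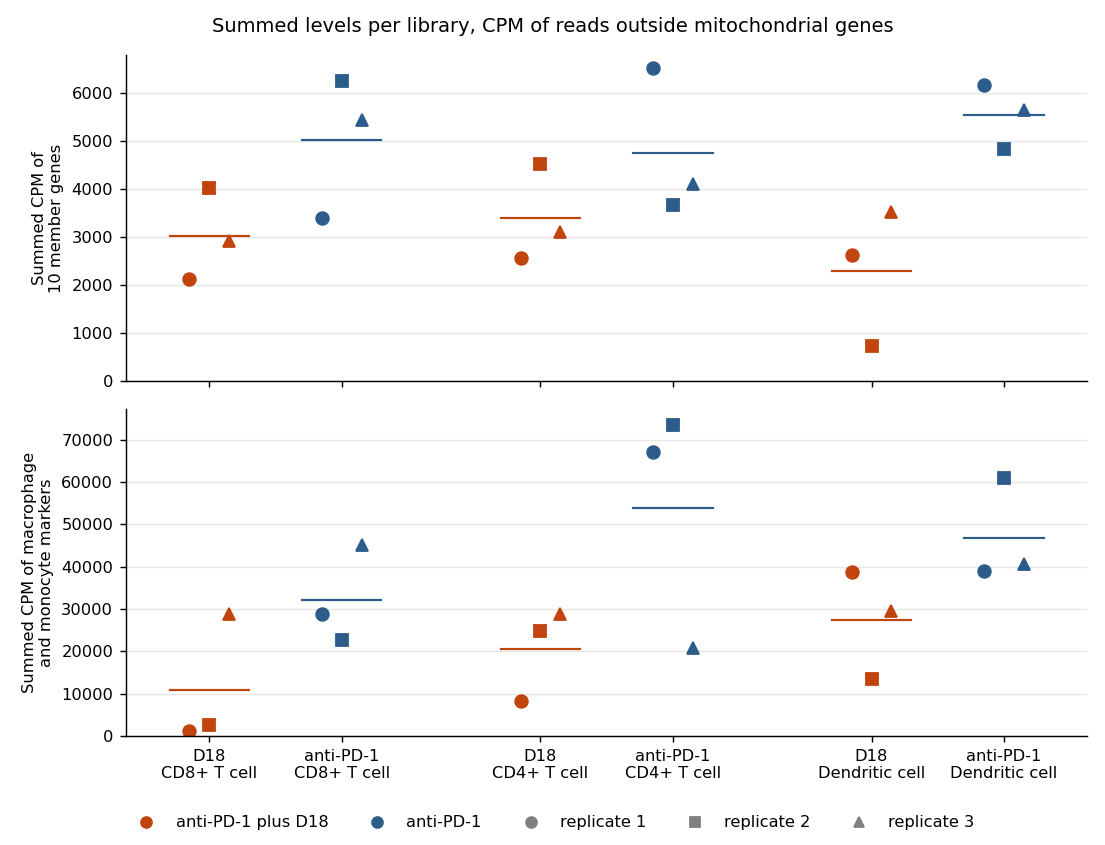
Summed CPM of non-mitochondrial reads of the 10 genes (top) and of the 12 macrophage and monocyte markers (bottom) in each library, by sort and treatment, with the mean of each group as a line. In the dendritic cell sort the members reach at most 3523 CPM with D18 and at least 4826 CPM with anti-PD-1 (as CPM of all reads these groups overlap), and in the CD8+ T cell sort the marker sums of D18 replicates 1 and 2 are below those of every anti-PD-1 library.

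Other genes of the pathway, from lists of translocation, glycosylation, chaperone, isomerase, degradation, stress regulation, transport and peptide loading genes, number 113 in the tables beside the 10 members. In the dendritic cell sort 18 of them could be tested, and 17 were lower and 1 higher with D18, with a median of −0.93 beside −0.65 over all genes; without D18 replicate 2, 7 of 18 were lower and the median was 0.03. In the CD8+ T cell sort 23 of 41 were lower and 18 higher (median −0.08), and in the CD4+ T cell sort 9 of 26 were lower and 17 higher (median 0.24). No gene of these lists passed in any sort by limma, as no gene did at all.

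Near the members, Ddost, another subunit of the oligosaccharyltransferase, had 4.34, 0 and 7.65 normalised reads with D18 and 20.1, 28.5 and 23.2 with anti-PD-1 in the dendritic cell sort (−2.78 ± 1.01), much as Rpn2 did. The change of Ddost was below 0 in the CD8+ (−1.03 ± 0.62) and CD4+ T cell sorts (−0.70 ± 0.52) too, but there the groups overlapped. In CD8+ T cells it had 7.48, 40.0 and 8.42 with D18 and 21.6, 36.6 and 31.7 with anti-PD-1. D18 replicate 2, with 117 reads of it, was thus the highest library of that sort, and the other D18 libraries held 4 and 5 reads. Krtcap2, which belongs to the oligosaccharyltransferase as well, was the gene of the 18 on the other side, at 0.84 ± 1.05. Ssr2, the beta subunit of the complex that holds Ssr1, had 1.09, 4.81 and 10.0 against 12.7, 20.0 and 17.5 in dendritic cells (−1.77 ± 0.92) and stood at −0.84 ± 0.39 in CD8+ T cells. Of the signal peptidase and signal recognition particle, Spcs2 stood at −1.15 ± 0.72 and Srp14 at −0.36 ± 1.35 in dendritic cells. The sign of Srp14 comes from the 0 in D18 replicate 2 (21.7, 0 and 14.8 normalised reads with D18 against 8.47, 6.33 and 9.94 with anti-PD-1). Srp9 stood at 1.13 ± 0.60 in CD8+ T cells.

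Among further folding genes of the CD8+ T cell sort, Erp29, a chaperone related to the isomerases, stood at −2.01 ± 0.84, the Hspa5 cochaperone Dnajb11 at −1.36 ± 0.56 and the membrane lectin chaperone Canx at −0.83 ± 0.52. Manf, a secreted protein induced by ER stress, stood at 0.78 ± 0.82. In this sort Erp29 had 7.48, 0.68 and 15.2 normalised reads with D18 and 13.5, 31.1 and 31.7 with anti-PD-1, which overlap. Its D18 values rest on 4, 2 and 9 reads. Erp29 stood at 0.03 ± 0.73 in CD4+ T cells and at −0.43 ± 0.72 in dendritic cells. In the dendritic cell sort none of the chaperone list beyond the members reached the filter. Xbp1, the transcription factor whose mRNA Ire1 splices, had 9.35, 17.1 and 10.1 normalised reads with D18 and 22.9, 20.5 and 35.6 with anti-PD-1 in CD8+ T cells (−1.06 ± 0.42), all D18 values below all anti-PD-1 values. In dendritic cells it had 5.43, 4.81 and 12.9 against 27.5, 24.3 and 12.8, which touch (−1.42 ± 0.66), and in CD4+ T cells its change was −0.35 ± 0.51. The splicing of Xbp1 was not measured. Atf4, the transcription factor downstream of Perk, stood at −1.27 ± 1.16 in dendritic cells, where its 0 in D18 replicate 2 sets the sign (20.6, 0 and 20.1 against 16.9, 17.9 and 17.99), at 0.06 ± 0.42 in CD8+ and at −0.87 ± 0.57 in CD4+ T cells. Of the ER-associated degradation genes, Selenos stood at −0.61 ± 0.69 in dendritic cells and Edem1 at 0.44 ± 0.47 in CD8+ T cells. Tap1, a subunit of the peptide transporter of MHC class I loading, had 26.8, 30.0 and 20.8 normalised reads with D18 and 4.89, 1.16 and 31.8 with anti-PD-1 in CD4+ T cells (1.83 ± 0.90). The low values are those of anti-PD-1 replicates 1 and 2, the libraries with 10 and 17 reads of the T cell list, and replicate 3 lay above every D18 library.

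Across the 18 libraries, 727 genes were testable in all 3 sorts, and their log2(CPM + 1) was set against the mean of the 10 members. Pearson's r of the members themselves with that mean ran from 0.35 (Hsp90b1) to 0.95 (Pdia3). Each member is part of that mean, which raises its r, so these values are not comparable with those of other genes. The 5 other genes most alike were Cct8, a subunit of the cytosolic chaperonin (0.958), Txnip, a thioredoxin-binding protein (0.957), Hcls1, an actin regulator of blood cells (0.948), Actr3, a subunit of the Arp2/3 complex (0.947), and Sdhb, a subunit of succinate dehydrogenase (0.945). The points share depth as well as sort: without the shallowest library the 5 values lay between 0.798 and 0.856, and the members ran from 0.29 (Serp1) to 0.91 (Hspa5). Serp1 had stood at 0.67 and Sec61b at 0.81 with all libraries, against 0.29 and 0.37 without that one, while Hsp90b1 went the other way, to 0.73. The median r over all 727 genes, with all libraries, was 0.474. These values use CPM of all reads. As CPM of non-mitochondrial reads, with all libraries, the 5 genes lay between 0.936 and 0.963 and the members between 0.28 (Hsp90b1) and 0.96 (Pdia3). The likeness is a description of these libraries.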

How the data were processed

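Bulk Smart-Seq2 RNA-seq of 18 sorted-cell libraries was used, 3 per treatment and sort, grouped by title. The submitters' processing notes name STAR 2.4.0, HTSeq 0.6.1, DESeq2 and the mm10 build. The deposited values are log2 values whose spacing is that of a variance-stabilising transform of size-factor-normalised reads, as read from the values and not from a label. Inverting it through the table minimum gave whole reads for 100% of values within 0.001, and size factors matched median ratios. Depth ran from 11170 to 266392 reads; a count of 0 allows 3 reads at 95%. The kit keeps no strand, and 5 members overlap a gene on the other strand, with at most 49 reads over all libraries.

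Symbols were matched for 98.9% of IDs, and places and exon lengths came from GENCODE M21 (GRCm38, the sequence behind mm10). limma 3.58.1 in R 4.3.3 (trend, robust) was fitted on log2(normalised reads + 1) over all genes with a mean of at least 10, per sort, with Benjamini-Hochberg adjustment against 0.05, and tested on simulated data. Python 3.11.15, numpy 2.4.6, pandas 2.3.3 and matplotlib 3.10.9 made tables and figures. Libraries of equal number deviated together in the CD8+ T cell sort (correlations of 0.36, 0.51 and 0.56), from which the pairing there is taken. Members and lists were chosen with earlier results of these data known; text names all members, per list and sort up to 3 non-members with the largest change, and the 5 genes most alike. Marker genes were named after their values were seen. Summed levels are shown both as CPM of all reads, the scale chosen first, and without mitochondrial reads.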

Additional observations from a re-analysis of the deposited data

How the results depend on the processing

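No result of the members was past a threshold, so none could be lost. The median change of the members stayed within 1 SD of the libraries under all 50 alternatives that gave one. A mean of at least 100 left too few members for it. In the dendritic cell sort that SD includes D18 replicate 2, whose removal moved the median from −1.86 to −0.76. Staying within it therefore does not show that the median is stable there. Leaving out 1 library moved that median between −1.09 and −0.48 in the CD8+ T cell sort, −0.66 and −0.11 in the CD4+ T cell sort and −2.43 and −0.76 in the dendritic cell sort. The genes passing over the whole table, 0 in each sort, became 22 (CD8+) and 29 (CD4+) without a filter, 20 with the replicate block in the CD8+ T cell sort, 1 in a single fit of all 18 libraries (CD8+) and 1 with the deposited log2 values (CD8+). Leaving out single libraries gave 0 to 2 in the CD8+ T cell sort (2 without D18 replicate 3), 0 to 19 in the CD4+ T cell sort (19 without anti-PD-1 replicate 3) and 0 to 0 in the dendritic cell sort; the cause was not tested. The replicate block gave 0 in the CD4+ T cell and dendritic cell sorts, where equal numbers did not deviate together (correlations of −0.14, 0.15 and −0.20, and of 0.03, −0.09 and 0.14). The summed level of the members in the CD4+ T cell sort was 2907 CPM with D18 and 2761 CPM with anti-PD-1 on the scale of all reads, chosen first, and 3404 CPM with D18 and 4754 CPM with anti-PD-1 without mitochondrial reads, so the direction turned. Changes of single members kept their sign in 165 of 170 values in the CD8+ T cell sort, 149 of 160 in the CD4+ T cell sort and 167 of 170 in the dendritic cell sort. The pseudocount moved Ssr1 of the dendritic cell sort most, to −4.26 at 0.1 and −1.21 at 10. The alternatives with deposited values, the library-set term and both libraries numbered 3 left out were chosen after the data had been seen. Depth limits all of this: D18 replicate 2 of the dendritic cell sort held 7 reads of the members.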
